A study of Mus musculus with 10 samples.

Results

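The 10 genes described here mark alveolar macrophages, the resident macrophages of the air spaces. They are Marco, Siglecf, Chil3, Mrc1, Fabp4, Ear1, Ear2, Pparg, Itgax and Plet1, and all 10 were found by symbol among the 24421 genes of the count table. RNA had been sequenced from regions cut by laser from fixed, paraffin-embedded lung sections of NIH Swiss mice of wild type genotype, 5 libraries from normal lung of untreated animals and 5 from lung squamous cell carcinoma (SCC) of animals given NTCU, a nitrosourea carcinogen. The labels used here give no age, do not tie libraries to animals and do not say how regions were picked. What the p-values weigh is the spread from library to library, and they are too small if regions share an animal.

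Alveolar macrophages settle in the air spaces around birth and renew themselves there. They take up inhaled particles and spent surfactant, and they depend on GM-CSF, made by alveolar epithelium, and on the nuclear receptor PPAR-gamma that this signal induces. Their surface carries the scavenger receptor MARCO, the mannose receptor CD206 (Mrc1), the sialic acid lectin Siglec-F and the integrin CD11c (Itgax), a combination that separates them from the interstitial macrophages of the lung wall. They also secrete the chitinase-like protein Ym1 (Chil3) and ribonucleases of the Ear family.

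For 3 of the secreted members the sequence bears on how far a count can be read, because each has a near-identical neighbour. Ear1 and Ear2 match at 95.7% of 465 aligned coding bases, and Chil3 and its neighbour Chil4 at 95.4% of 1194. The first 120 coding bases of each are shown 5′ to 3′ from GENCODE M21 transcripts (GRCm38), with bases that differ within a pair in capitals, to show how long the stretches are that a short read cannot assign.
Ear1: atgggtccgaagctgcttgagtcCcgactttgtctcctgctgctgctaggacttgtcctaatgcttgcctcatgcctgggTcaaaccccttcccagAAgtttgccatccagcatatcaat
Ear2: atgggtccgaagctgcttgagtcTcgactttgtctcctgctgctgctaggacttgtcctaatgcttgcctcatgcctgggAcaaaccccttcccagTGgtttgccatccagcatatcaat
Chil3: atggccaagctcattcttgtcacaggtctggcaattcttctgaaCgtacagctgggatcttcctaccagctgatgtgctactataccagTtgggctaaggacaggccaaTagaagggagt
Chil4: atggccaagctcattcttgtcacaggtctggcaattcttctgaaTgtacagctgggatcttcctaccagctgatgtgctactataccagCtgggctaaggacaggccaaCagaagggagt
The Ear pair differs at 4 of these bases and the Chil pair at 3. Over the whole transcript, 57.4% of the 50-base windows of Ear1, 41.5% of those of Ear2 and 29.4% of those of Chil3 also occur in a transcript of another gene. For Itgax the share was 9.61%, all of it shared with Itgad, and for the other 6 members it was at most 0.488%. Ear1 shared more windows with Ear-ps9 (41.4%) than with Ear2 (23.8%), and Ear2 more with Ear10 (26.0%) than with Ear1 (23.6%). Chil3 shared 18.5% with Chil4 and 14.6% with Gm6522. The treatment of reads with several possible origins in the authors' counting was not stated in these sources. The split between Ear1 and Ear2, and between Chil3 and Chil4, is therefore uncertain, as is the split with these other genes.

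Total counts ran from 1004105 to 6817106 per library. The labels held against tissue markers: Sftpc, a surfactant gene of type 2 cells, was at 2554 CPM (counts scaled to a library total of 1000000) or more in each normal library and at 238 or less in each SCC library, and Krt5, a basal keratin, was at 5.49 or less and at 201 or more. SCC 1, SCC 3 and SCC 4 stood apart from SCC 2 and SCC 5 by counts on chemosensory receptor genes, at 3.27 to 3.53 CPM per kb against 0.420 to 0.594, with normal lung at most 0.207. Read as a background proportional to coding length, this signal would make up 23.6% of the SCC counts of Pparg, 23.5% of Itgax, 20.8% of Marco, 20.1% of Fabp4, 17.3% of Siglecf, 11.1% of Mrc1, 5.55% of Ear2, 5.28% of Ear1, 1.27% of Plet1 and 1.24% of Chil3. In SCC 1 the estimate exceeded the counts of Siglecf (592% of them), Pparg (262%) and Marco (135%), so these 3 do not rise above it there. It was 93.5% of the SCC 1 counts of Itgax, 65.8% of Mrc1 and 54.1% of Ear2. SCC 3 and SCC 4 were the most alike of the pairs within a group (chi-square per degree of freedom 2.93, against 11.5 or more).

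No alveolar macrophage gene of the 10 passed the test between SCC and normal lung. Of the 8 members with enough counts to be tested, 0 were called higher and 0 lower in SCC (adjusted p under 0.05 by Benjamini-Hochberg, quasi-likelihood test of edgeR), where 21.1% of the 13203 genes tested were called, 12.5% higher and 8.68% lower. At an unadjusted p under 0.05 the count was also 0 of 8, against 32.4% of all genes tested, and DESeq2 and limma-voom gave 0 at either threshold. Several other alternatives put 1 to 3 members under the unadjusted threshold. The count was 1 with upper-quartile factors (Plet1), 2 without SCC 3 (Chil3 and Itgax) and 3 with the receptor signal as a covariate (Ear1, Itgax and Plet1). In no member did the SCC and normal libraries separate without overlap, which 14.6% of tested genes did, 8.81% with SCC above and 5.77% with SCC below. The median log2 fold change of the 8 was -0.39, with 6 below 0 and 2 above, beside a median of 0.07 over all genes tested. Marco and Fabp4, which define these cells, had too few counts to pass the filter and were near 0 in normal lung, so the label rests there on the other members. In bulk RNA of this kind, fewer cells of a type and less RNA per cell cannot be told apart.

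**Figure D1:**
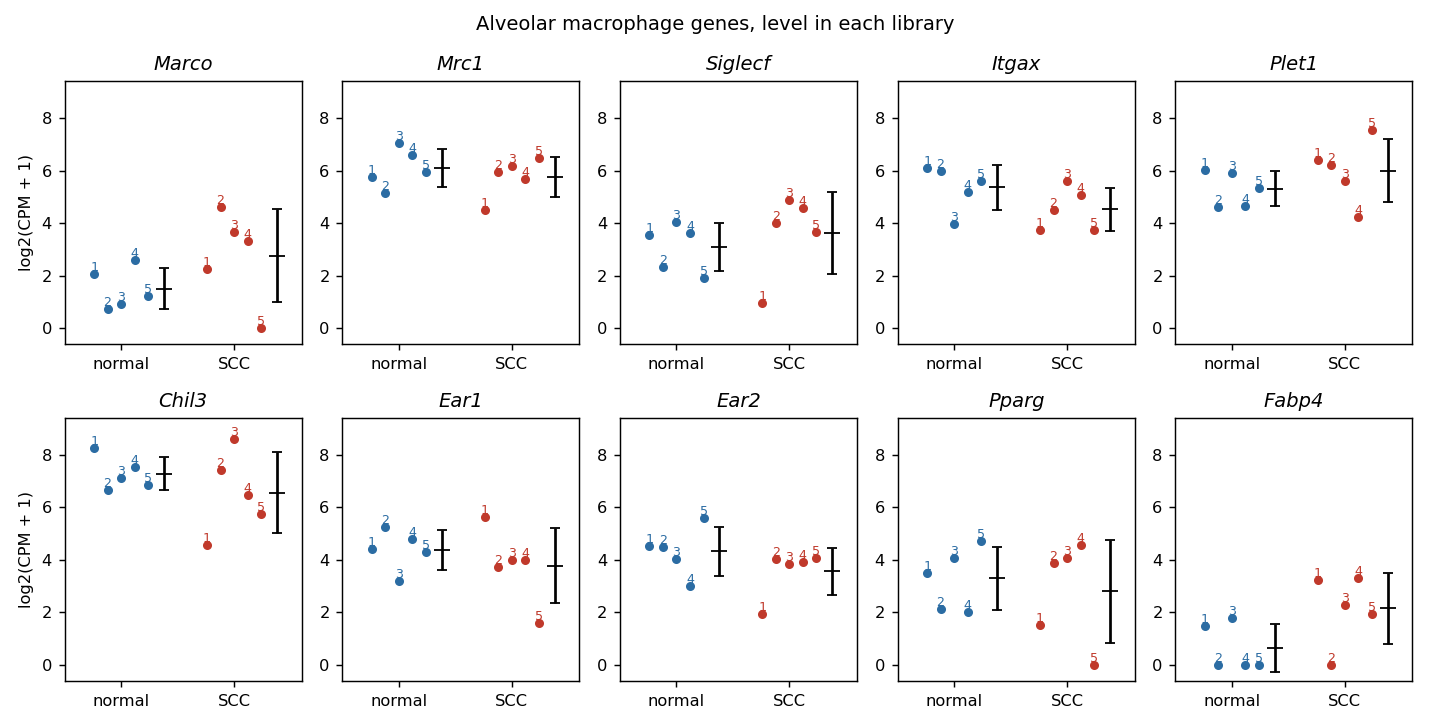
Level of each of the 10 genes in each library, as log2(CPM + 1) on a common axis, with blue points for normal lung, red points for SCC, library numbers above the points and the group mean with its SD (n = 5) in black. The groups overlap in all 10 panels, and Marco and Fabp4 lie near 0 in several libraries. Chil3 has the highest mean in both groups, though Plet1 lies above it in SCC 1 and SCC 5.

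Among the receptors, Mrc1, an endocytic lectin for mannose-bearing glycoproteins (chromosome 2, 14229392 to 14332057, plus strand), was the steadiest in normal lung. It stood at 52.3, 34.9, 131, 94.5 and 61.1 CPM in normal 1 to normal 5 and at 21.7, 60.4, 71.6, 50.8 and 87.4 CPM in SCC 1 to SCC 5. Only SCC 1 lay below the normal range, and none lay above it. The log2 fold change was -0.45 (SE 0.42, 95% interval -1.31 to 0.41, n = 5 each, edgeR adjusted p = 0.501), so the fitted ratio lay between 0.404 and 1.33. Mrc1 is also made by lymphatic endothelium and interstitial macrophages. The 6 lymphatic genes listed summed to 421 to 1193 CPM in normal lung and 150 to 182 in SCC, with Ccl21a at 0 counts in every library and 2 of 5 tested called lower, Lyve1 and Flt4 (1 of them without normal 1, normal 4, SCC 1, SCC 3 or SCC 4). Most of that fall in the sum was Lyve1, from a mean of 463 to 29.4 CPM. Over all genes tested, 8.68% were called lower. Prox1, the transcription factor that sets lymphatic identity, was at 1.30 (SE 0.64, adjusted p = 0.162) and Reln, a secreted glycoprotein, at 0.83 (SE 0.48, adjusted p = 0.242), both picked after their values were seen. Lyve1, which marks lymphatic endothelium and some interstitial macrophages, fell by 4.04 on the log2 scale (SE 0.50, adjusted p = 2.5e-06), and its part in the values of Mrc1 was not tested.

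Siglecf, an inhibitory lectin for sialic acids (chromosome 7, 43351341 to 43359531, plus strand), stood at 10.7, 4.10, 15.7, 11.2 and 2.74 CPM in normal 1 to normal 5. In SCC 1 to SCC 5 it was at 0.943, 15.2, 28.1, 22.9 and 11.8 CPM. SCC 3 and SCC 4 exceeded every normal library, and SCC 1, with 1 count, lay below all of them. Siglecf differed by 0.70 on the log2 scale (SE 0.75, 95% interval -0.83 to 2.24, edgeR adjusted p = 0.561).

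Eosinophils carry Siglec-F as well, and their genes were counted in the SCC libraries. The 7 eosinophil genes listed summed to 3.58 to 13.9 CPM in normal lung and 94.7 to 207 CPM in SCC. Epx, eosinophil peroxidase, had 3 counts over the 5 normal libraries and 147 over the SCC libraries, and was at 29.2, 2.71, 32.5, 31.9 and 6.12 CPM in SCC 1 to SCC 5. Alox15, a lipoxygenase, rose by 6.47 (SE 0.70, adjusted p = 4.75e-07), and 2 of the 3 eosinophil genes that could be tested were called higher, beside 12.5% of all genes tested. Most of the eosinophil sum was Alox15 in SCC 1, SCC 2 and SCC 5 (77.3 of 147, 145 of 161 and 66.1 of 94.7 CPM). In SCC 3 and SCC 4 it was the smaller part (57.2 of 207 and 33.9 of 170 CPM). The background from chemosensory receptor genes equalled 23.7% of the SCC counts of Epx. Siglecf and the eosinophil sum were both highest in SCC 3, while SCC 1 held 147 CPM of eosinophil genes and the lowest Siglecf level. The part of eosinophil RNA in the Siglecf values was not tested.

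Marco, a class A scavenger receptor that binds bacteria and particles (chromosome 1, 120474538 to 120505024, minus strand), was scarce in normal lung, with 31 counts in all. It stood at 3.22, 0.684, 0.880, 5.01 and 1.37 CPM in normal 1 to normal 5 and at 3.77, 23.6, 11.6, 8.96 and 0 CPM in SCC 1 to SCC 5. SCC 2, SCC 3 and SCC 4 lay above every normal library, and SCC 5, at 0 of 2449172 counts, allows a level of up to 1.22 CPM. Without a filter on low counts the log2 fold change was 1.57 (SE 1.02, 95% interval -0.42 to 3.57, adjusted p = 0.215), in a fit whose median over all genes was 0.71. The 87 counts of SCC 2 are the bulk of its 121 SCC counts, and the background estimate in SCC 2 was 3.91% of them, against 44.5% in SCC 3, 61.1% in SCC 4 and 135% in SCC 1.

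Itgax, the alpha chain of an integrin that binds complement fragments (chromosome 7, 128129547 to 128150657, plus strand), showed the largest shift towards lower levels together with Ear2. It was at 66.9, 62.2, 14.8, 35.1 and 48.0 CPM in normal 1 to normal 5. In SCC 1 to SCC 5 it was at 12.3, 21.7, 47.3, 32.9 and 12.2 CPM. All 5 SCC libraries lay below the normal median, but normal 3 sat among the lowest SCC values. The log2 fold change was -0.97 (SE 0.50, 95% interval -1.99 to 0.05, edgeR adjusted p = 0.181, the smallest of the 8). Without a filter on low counts it passed the threshold at -1.40 (adjusted p = 0.0257), in a fit that called 32.9% of genes and whose median over all genes was 0.71.

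Dendritic cells are the other main source of Itgax. Their 10 listed genes summed to 56.9 to 130 CPM in normal lung and 42.1 to 209 CPM in SCC. Of 7 tested 1 was called, beside 21.1% of all genes tested: Xcr1, a chemokine receptor of cross-presenting dendritic cells, at 2.30 (SE 0.70, adjusted p = 0.0193). The 7 tested had a median of -0.29, with 5 below 0 and 2 above, and Clec9a, another gene of cross-presenting dendritic cells, picked after its value was seen, was at -0.53 (SE 0.83, adjusted p = 0.711). Xcr1 was at 0.97 (adjusted p = 0.645) with SCC 2 and SCC 5 alone and missed the threshold without normal 2, normal 3, SCC 3 or SCC 4 (adjusted p of 0.0509, 0.0555, 0.0983 and 0.126). The part of dendritic cells in the Itgax values was not tested.

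Plet1, a membrane protein of alveolar macrophages and of some epithelia (chromosome 9, 50494525 to 50505482, plus strand), was the member with the largest shift towards higher levels among the 8. It stood at 63.7, 23.2, 59.1, 24.3 and 39.8 CPM in normal 1 to normal 5 and at 83.0, 72.6, 47.9, 17.9 and 183 CPM in SCC 1 to SCC 5. SCC 5 held the highest level and SCC 4 the lowest of all 10 libraries. The log2 fold change was 0.88 (SE 0.48, 95% interval -0.10 to 1.87, edgeR adjusted p = 0.206), and without SCC 5 it was 0.23 (adjusted p = 0.748).

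SCC 5 was also the library richest in squamous genes, with Krt5 at 1486 CPM against 201 to 598 CPM in the other SCC libraries. The 10 squamous and basal genes listed summed to 1.79 to 8.49 CPM in normal lung and 1076 to 7621 CPM in SCC, and all 9 tested were higher. When the SCC group was cut to libraries 2 and 5, Plet1 passed the threshold at 1.53 (adjusted p = 0.0443, where 9.3% of genes were called), and with the receptor signal as a covariate at 2.73 (adjusted p = 0.0264, where 6.33% were called). With SCC 1, SCC 3 and SCC 4 alone it was at -0.12 (adjusted p = 0.865). The part of epithelial RNA in the Plet1 values was not tested.

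Chil3 (Ym1, a secreted lectin without chitinase activity, on chromosome 3, 106147554 to 106167564, minus strand) had the highest mean level of the members in both groups. It stood at 302, 100.5, 137, 182 and 113 CPM in normal 1 to normal 5, and at 22.6, 169.6, 381, 86.6 and 52.3 CPM in SCC 1 to SCC 5. SCC values spread on both sides of the normal range, with SCC 3 above it and SCC 1, SCC 4 and SCC 5 below it. The ratio of the highest to the lowest library was 3.01 in normal lung and 16.8 in SCC. On the log2 scale Chil3 differed by -0.34 (SE 0.51, 95% interval -1.39 to 0.71, edgeR adjusted p = 0.698). Without SCC 3 it was -1.20 (adjusted p = 0.0799).

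Chil4 (Ym2), the near-identical neighbour, was named after its values were seen. It had 0 to 3 counts in each normal library, and measured 6.60, 2.44, 389, 3.98 and 70.6 CPM in SCC 1 to SCC 5. In SCC 3 and in SCC 5 the counts assigned to Chil4 exceeded those assigned to Chil3, a split that the shared sequence leaves uncertain. Summed, the pair was at 103 to 302 CPM in normal lung and at 29.2, 172.0, 769.5, 90.6 and 122.9 CPM in SCC 1 to SCC 5, and the sign of the difference turned, to 0.31 (SE 0.55, edgeR adjusted p = 0.752).

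Neutrophils and their precursors also carry Chil3. The 11 neutrophil genes in the table summed to 64.5 to 205 CPM in normal lung and 143 to 413 CPM in SCC. Of 6 tested 2 were higher, beside 12.5% of all genes tested, with Cxcr2, a chemokine receptor, among them at 2.30 (SE 0.42, adjusted p = 0.000275). With SCC 2 and SCC 5 alone Cxcr2 was at 1.07 (adjusted p = 0.214), and with the receptor signal as covariate at 0.57 (adjusted p = 0.755). Without SCC 1, 1 neutrophil gene was called higher. S100a8, an abundant neutrophil protein, had 76 counts in normal lung and 21 in SCC, with 0 counts in SCC 1, SCC 4 and SCC 5. The part of neutrophils in the Chil3 values was not tested.

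Ear1 and Ear2 encode secreted ribonucleases and lie on chromosome 14 (43818765 to 43875517, minus strand, and 44102654 to 44103534, plus strand). Ear1 was at 20.4, 36.9, 8.21, 26.6 and 18.5 CPM in normal 1 to normal 5 and at 48.1, 12.2, 14.9, 14.9 and 2.04 CPM in SCC 1 to SCC 5. Ear2 was at 21.8, 21.2, 15.5, 6.94 and 47.3 CPM in normal 1 to normal 5 and at 2.83, 15.4, 13.2, 13.9 and 15.9 CPM in SCC 1 to SCC 5. Among the SCC libraries, Ear1 was highest and Ear2 lowest in SCC 1, and Ear1 was lowest and Ear2 highest in SCC 5. Against their normal means on the log2 scale, the pair went opposite ways in SCC 1 (1.01 for Ear1 and -2.65 for Ear2). Both lay below in SCC 5 (-2.9 and -0.256).

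The log2 fold change was -0.44 for Ear1 (SE 0.65, 95% interval -1.78 to 0.89, edgeR adjusted p = 0.691) and -0.96 for Ear2 (SE 0.63, 95% interval -2.26 to 0.33, adjusted p = 0.310). Without SCC 1 the value of Ear1 was -1.21 (adjusted p = 0.246). Added together, Ear1 and Ear2 were more even, at 42.2, 58.1, 23.8, 33.6 and 65.9 CPM in normal lung and at 50.9, 27.6, 28.1, 28.9 and 18.0 CPM in SCC. With Ear6 and Ear10, 2 further family members, the sum differed by -0.77 (SE 0.42, 95% interval -1.64 to 0.09, adjusted p = 0.21). The sum has the narrowest interval of the Ear values and still spans 0.

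Pparg, the nuclear receptor that sets the lipid-handling programme of these macrophages (chromosome 6, 115360951 to 115490399, plus strand), had low and uneven counts. It was at 10.4, 3.42, 16, 3.09 and 25.4 CPM in normal 1 to normal 5 and at 1.89, 13.5, 16, 22.9 and 0 CPM in SCC 1 to SCC 5. SCC 2, SCC 3 and SCC 4 lay within the normal range, and SCC 1 and SCC 5 lay below it. SCC 5 had 0 counts, which allows up to 1.22 CPM. The fitted log2 difference was -0.24 (SE 0.89, 95% interval -2.06 to 1.58, edgeR adjusted p = 0.886), the widest interval of the 8.

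Alveolar type 2 cells carry Pparg too, and their genes fell in the same libraries. All 9 type 2 genes listed were lower, Slc34a2, a phosphate transporter, by 4.2 on the log2 scale (SE 0.43, adjusted p = 2.06e-07), and their sum went from 8438 to 11637 CPM in normal lung to 548 to 987 CPM in SCC. The part of type 2 cells in the Pparg values was not tested.

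Fabp4, a fatty acid carrier induced by PPAR-gamma (chromosome 3, 10204088 to 10208576, minus strand), was at the edge of detection. It stood at 1.79, 0, 2.49, 0 and 0 CPM in normal 1 to normal 5, from 22 counts in all, and at 8.48, 0, 3.85, 8.96 and 2.86 CPM in SCC 1 to SCC 5, from 32 counts. The libraries at 0 allow up to 2.05, 1.16 and 2.06 CPM in normal 2, normal 4 and normal 5, and up to 0.813 CPM in SCC 2. These floors, like all counting limits here, cover counting error only. Without a filter the log2 fold change was 1.65 (SE 1.23, 95% interval -0.75 to 4.06, adjusted p = 0.285), in a fit whose median over all genes was 0.71.

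Capillary endothelium and fat cells also carry Fabp4. The 11 blood endothelial genes summed to 2585 to 4096 CPM in normal lung and 219 to 396 CPM in SCC, with 10 of 11 lower, Kdr, the VEGF receptor, by 3.67 on the log2 scale (SE 0.42, adjusted p = 7.53e-07). The 9 fat cell genes summed to 34.3 to 69.1 CPM in normal lung and to 70.7, 52.5, 91.4, 120 and 24.5 CPM in SCC 1 to SCC 5. Adipoq had 1 count in normal lung and 26 in SCC, beside a background estimate of 46.3% of the latter. Retn had 0 counts in normal lung and 34 in SCC, and Cfd had 36 and 8, both named after their values were seen. Neither of the 2 fat cell genes that could be tested was called (edgeR). The part of endothelial or fat cell RNA in the Fabp4 values was not tested.

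**Figure D2:**
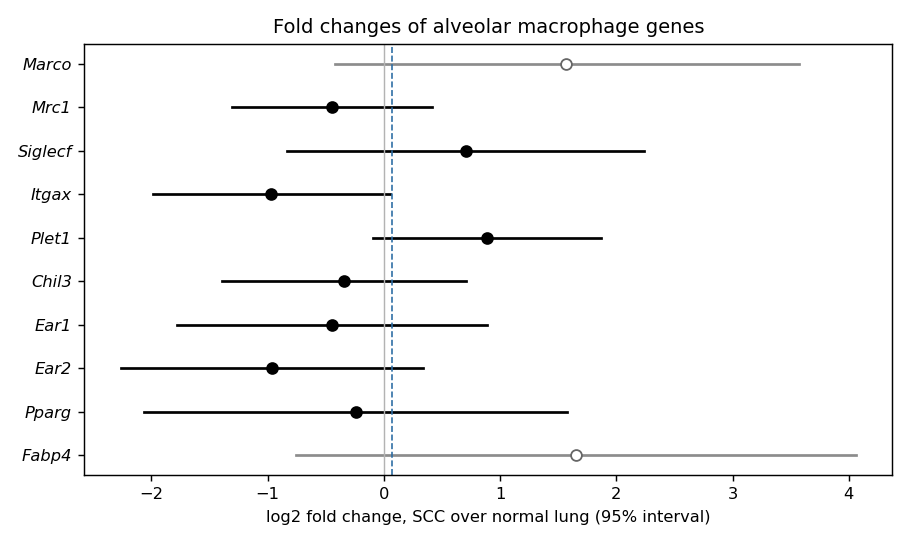
Log2 fold change of each gene, SCC over normal lung, with its 95% interval. Black points are the 8 genes tested with the filter on low counts, and the dashed line is the median of all genes in that fit (0.07). Open grey points are Marco and Fabp4 from the fit without that filter, whose median over all genes was 0.71. All 10 intervals include 0, and those of Itgax (-1.99 to 0.05) and Plet1 (-0.10 to 1.87) reach it only at one end.

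Per kb of transcript, the levels in normal lung ordered the members from Chil3 (108 ± 53.2 CPM per kb, SD, n = 5) through Ear2 (31.4 ± 21), Ear1 (31.0 ± 14.8), Plet1 (24.9 ± 11.2), Mrc1 (13.9 ± 7.09), Itgax (11.2 ± 5.23), Pparg (6.59 ± 5.30), Siglecf (3.41 ± 2.06) and Marco (1.16 ± 0.961) to Fabp4 (0.956 ± 1.34). The steps from Chil3 to Ear2 and from Siglecf to Marco exceeded the SD of both neighbours, and no other step did. The ranges still met at the first, at 65.3 CPM per kb for the lowest Chil3 and 65.8 for the highest Ear2. In SCC the order was Chil3 (92.5 ± 93.7 CPM per kb), Plet1 (47.9 ± 36.9), Ear1 (25.8 ± 24.4), Ear2 (17.1 ± 7.5), Mrc1 (10.9 ± 4.58), Itgax (6.25 ± 3.70), Pparg (6.15 ± 5.49), Siglecf (6.06 ± 4.01), Fabp4 (5.39 ± 4.27) and Marco (4.97 ± 4.69). The last 5 were within 1 SD of each other there. Chil3 made up 31.5% to 54.6% of the counts on the 10 genes in normal lung and 11% to 60.0% in SCC.

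The members did not move as a block within SCC. SCC 3 held 7 of 10 above their normal mean (median deviation 0.34 on the log2 scale). In SCC 1, 6 of 10 lay below (median -1.85), with Chil3 lowest at -2.95 and Fabp4 highest at 2.66. Ear2 lay below its normal mean in all 5 SCC libraries, and no other tested member did, though Itgax missed this only by 0.0037 in SCC 3. SCC 5 ran from -3.67 for Pparg to 2.21 for Plet1, and SCC 2 from -1.07 for Itgax to 3.04 for Marco. The SD of log2 CPM between SCC libraries had a median of 1.34 over the 8 tested members, and 6 of the 8 exceeded the median of 0.86 over all genes tested. In normal lung the corresponding medians were 0.85 and 0.73, with 5 of 8 above. The members' summed level was 287 to 553 CPM in normal lung and 206 to 635 CPM in SCC.

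**Figure D3:**
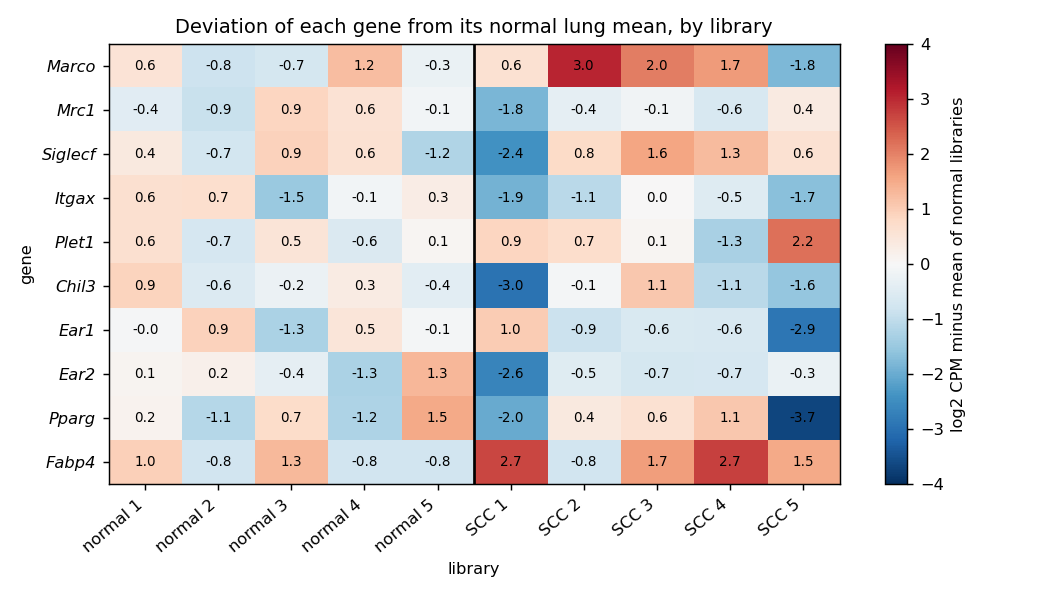
Log2 CPM of each gene in each library minus the mean of the normal libraries, with red for higher and blue for lower and the value printed in each cell. The SCC columns mix both colours, from -3.67 for Pparg in SCC 5 to 3.04 for Marco in SCC 2, and Ear2 is below its normal mean in all 5 SCC libraries.

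With SCC 2 and SCC 5 alone and with SCC 1, SCC 3 and SCC 4 alone, several members gave unlike values. Ear1 was at -1.79 (adjusted p = 0.245) and -0.15 (adjusted p = 0.863), Mrc1 at -0.14 (adjusted p = 0.914) and -0.996 (adjusted p = 0.0796), and Ear2 at -0.63 (adjusted p = 0.708) and -1.50 (adjusted p = 0.099). Itgax lay on the same side in both, at -1.55 (adjusted p = 0.150) and -0.89 (adjusted p = 0.179). The difference between these subsets was not tested.

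Of 15 tested companion genes of alveolar macrophages 1 was higher and 2 were lower, with a median log2 fold change of -0.12, a share called near the 21.1% over all genes tested. Car4, a membrane carbonic anhydrase that aerocyte capillaries share, went from 71.6, 55.4, 97.7, 125 and 129.7 CPM in normal lung to 0, 11.4, 5.50, 8.96 and 0.817 CPM in SCC. It fell by 4.26 (SE 0.60, adjusted p = 1.33e-05), with all SCC libraries below all normal ones. Nceh1, a cholesterol ester hydrolase, fell by 1.18 (SE 0.40, adjusted p = 0.0349), a call lost without normal 4, SCC 1 or SCC 4 (adjusted p of 0.0774, 0.0606 and 0.0508), with upper-quartile factors (0.0871), with the background subtracted (0.0802), with SCC 2 and SCC 5 alone (0.155) and with the covariate (0.607). Serpinb1a, an inhibitor of neutrophil proteases, rose by 2.10 (SE 0.55, adjusted p = 0.007). Its call was lost with SCC 2 and SCC 5 alone (2.14, edgeR adjusted p = 0.0669) and with the covariate (2.77, adjusted p = 0.129). Atp6v0d2, a proton pump subunit, was at -0.94 (SE 0.43, adjusted p = 0.131), Ccl6, a chemokine, at -0.53 (SE 0.43, adjusted p = 0.433) and Bhlhe41, a transcription factor of these cells, at 0.05 (SE 0.42, adjusted p = 0.952). These last 3 were picked after their values were seen.

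Of 12 tested genes for signals that shape alveolar macrophages 3 were lower and 0 higher, beside 8.68% and 12.5% over all genes tested. The share called in either direction was near the 21.1% over all genes. Whatever their calls, 10 were below 0 and 2 above. Only 1 was called lower without normal 5 or with the background subtracted, and 0 with SCC 2 and SCC 5 alone. Csf2, which encodes GM-CSF, was too scarce to test, at 24 counts in normal lung and 61 in SCC, and it measured 17.9, 1.08, 13.8, 9.96 and 1.22 CPM across SCC 1 to SCC 5. Its receptor chains Csf2ra (-0.38, SE 0.36, adjusted p = 0.511) and Csf2rb (0.23, SE 0.40, adjusted p = 0.737) did not pass the test. Stat5b, a transcription factor downstream of that receptor, fell by 1.77 (SE 0.50, adjusted p = 0.0114). Stat5a, its relative in the same list, went the other way without passing the test, at 1.63 (SE 0.76, adjusted p = 0.137), and was picked after its values were seen. Csf1r, the receptor for M-CSF on all macrophages, fell by 1.46 (SE 0.45, adjusted p = 0.0201), with an adjusted p of 0.061 without normal 5. With SCC 2 and SCC 5 alone Stat5b was at -1.65 (adjusted p = 0.0738) and Csf1r at -1.03 (adjusted p = 0.231). Of 11 macrophage transcription factors 2 were higher, among them Bhlhe40 at 2.11 (SE 0.47, adjusted p = 0.0017), and 1 was lower, Cebpb at -1.52 (SE 0.46, adjusted p = 0.0184). Over all genes tested, 12.5% were called higher and 8.68% lower. Bhlhe40 was at 0.79 (adjusted p = 0.0939) with SCC 1, SCC 3 and SCC 4 alone and at 0.65 (adjusted p = 0.14) with limma-voom, and Cebpb at -0.70 (adjusted p = 0.354) with SCC 2 and SCC 5 alone and at -0.26 (adjusted p = 0.885) with the covariate. Only 1 factor was called higher when normal 1, normal 3, normal 4, normal 5, SCC 1, SCC 3 or SCC 4 was left out. These factors are also made by epithelium and other cells.

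Over all genes tested, 8.68% were called lower and 12.5% higher. Lipid-handling genes that PPAR-gamma controls or works with had 2 of 14 lower and 0 higher, with a median of -0.56. Both are widely made: Cd36, a fatty acid and oxidised lipid receptor that capillary endothelium shares, fell by 2.56 (SE 0.44, adjusted p = 0.000135), and Npc2, a lysosomal cholesterol carrier that alveolar epithelium shares, by 1.62 (SE 0.40, adjusted p = 0.00392). Among 15 scavenger and pattern receptors 1 was higher, Cd14, the lipopolysaccharide co-receptor, at 2.48 (SE 0.53, adjusted p = 0.00132), and 2 were lower, Cd36 being one (1 lower without SCC 1 or SCC 3, and 2 higher without normal 3 or SCC 5). Of 12 relatives of Chil3 and the Ear genes 5 could be tested, and 3 of these were lower. The filter on low counts left out Chil4 (6 counts in normal lung and 899 in SCC) and Chit1, a chitinase of macrophages (5 and 140 counts, picked after its values were seen), both with all SCC libraries above all normal ones, and without the filter 2 relatives were called higher. Chia1, an acidic chitinase, was at -4.34 (SE 0.84, adjusted p = 0.000449), from 15 SCC counts, beside a background estimate of 154% of these.

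General macrophage genes were likewise mixed. Of 13 tested, 2 were higher and 3 lower, beside 12.5% and 8.68% over all genes, with a median of 0.05. With SCC 1, SCC 3 and SCC 4 alone 5 were lower. In the fit with the receptor signal as covariate, 0 genes were called lower among these and in the lists of signals, transcription factors, lipid handling, scavenger receptors, chitinase and Ear relatives and monocyte-derived macrophages. By summed level, the 15 in the table summed to 1284 to 1868 CPM in normal lung and 696 to 1452 CPM in SCC. Lyz2, named after its values were seen, had the highest mean of these in both groups, 842 CPM in normal lung and 340 CPM in SCC. It fell by 1.42 (SE 0.38, edgeR adjusted p = 0.00761), so the sums largely follow this 1 gene. Adgre1 (F4/80) was at -0.41 (SE 0.59, adjusted p = 0.683) and Cd68, a lysosomal glycoprotein, at 0.55 (SE 0.41, adjusted p = 0.378). Lgals3, a lectin that keratinocytes share, rose by 2.49 (SE 0.42, adjusted p = 0.000108). Of 14 genes of monocyte-derived and interstitial macrophages 2 were higher and 1 lower, with a median of 0.34, a share called near the 21.1% over all genes tested. In this list 10 were above 0 and 4 below, and Lyve1 was the 1 called lower. Arg1, an enzyme of arginine breakdown, went from 3 counts in all of normal lung to 43.5 to 741 CPM in SCC (9.74, SE 0.97, adjusted p = 1.18e-07). Its highest level, 741 CPM, was in SCC 5, the library richest in squamous genes. Which cells carried the Arg1 RNA was not tested.

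**Figure D4:**
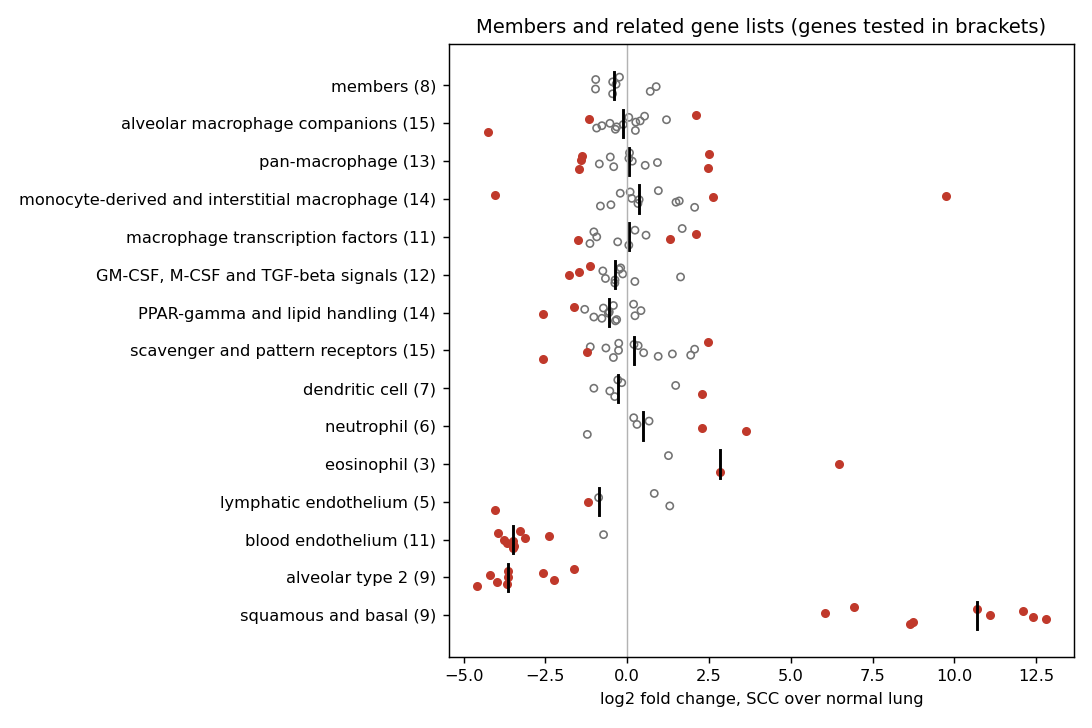
Log2 fold changes, SCC over normal lung, of the tested genes in the members and in the lists shown (those of fat cells and of chitinase and Ear relatives are left out), with red points for genes called at an adjusted p under 0.05, open points for the others and black bars for list medians. The 8 members lie between -0.97 and 0.88 with no called gene, near the macrophage lists, while the alveolar type 2 and blood endothelial genes lie to the left (medians -3.64 and -3.48) and the squamous genes to the right.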

How the data were processed

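Read counts per gene symbol were used as deposited by the authors, 1 column per library, with no normalization. Per the submitters' processing notes, cutadapt 1.9.1, TopHat2 2.0.1, HTSeq 0.6.1, DESeq2 and the build mm10 are named. The annotation and the strand setting were not stated in these sources. The analysis used edgeR 4.0.16 under R 4.3.3: filterByExpr by group (13203 genes kept), TMM factors, quasi-likelihood test with robust estimation, Benjamini-Hochberg adjustment over all genes tested, called under 0.05. SE is the log2 fold change divided by the square root of F. CPM are counts scaled to a library total of 1000000, and deviations use TMM-scaled log2 CPM with a prior count of 2. Total counts of 1004105 to 6817106 limit low genes, with a floor of 3 counts. Alternatives used DESeq2 1.42.0 and limma 3.58.1. The test was checked on simulated data. Gene positions and lengths were read from GENCODE M21 on GRCm38 (mm10), matched by symbol for 24027 of 24421 genes. The receptor signal is the counts on 1452 olfactory, vomeronasal and trace amine receptor genes per kb of coding length, capped at percentile 98. The members and the 16 gene lists were chosen with earlier results of these data known. Named list genes are the 2 of smallest p per list (1 for lists under 8 tested genes), called companions, and defining markers. Ly6g was not analysed here.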

Additional observations from a re-analysis of the deposited data

Results flagged for a closer look

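For each of the 10 genes, the highest and lowest library of each group of 5 were compared with the rest, 20 comparisons in all, of which chance flags about 1 in 20. The 2 values that stood apart were both low and both in SCC 1. Siglecf was at 0.72 log2 CPM in SCC 1, from 1 count, where the other SCC libraries had 3.73 to 4.72. Ear2 was at 1.75 log2 CPM in SCC 1, from 3 counts, where the others had 3.68 to 4.14, while Ear1 was at 48.1 CPM in the same library, the highest of its group.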

How the results depend on the processing

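Across 23 alternatives, 173 values of the members kept their direction and their side of the threshold, 7 turned direction and 3 newly passed it. Plet1 passed with SCC 2 and SCC 5 alone (1 member higher, 592 genes higher and 738 lower) and with the receptor signal as covariate (2.73, adjusted p = 0.0264; 1 member higher, 466 and 370 genes). Itgax passed without a filter on low counts (1 member lower, 5470 and 2072 genes). A minimum of 1 CPM in 5 libraries called 3551 genes higher, limma-voom 3259 higher and 2766 lower, and SCC 1, SCC 3 and SCC 4 alone, an alternative added after seeing the data, 3841 and 2927. The cause was not tested.

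Directions turned for Chil3 when summed with Chil4 (0.31) and for Mrc1 with the covariate (0.73). Pparg turned with upper-quartile factors (0.0496), limma-voom (0.40) and without SCC 5 (0.0588), and Plet1 with limma-voom (-0.28) and with SCC 1, SCC 3 and SCC 4 alone (-0.12). Adgre1 turned with the covariate (0.0345). Csf2rb turned without a filter (-0.22), with SCC 2 and SCC 5 alone (-0.63), with the covariate (-1.44), with SCC 3 and SCC 4 summed (-0.0355) and without normal 4 (-0.0773), normal 5 (-0.0246), SCC 3 (-0.0926) or SCC 4 (-0.00743). Leaving out 1 library gave -0.786 to 0.0588 for Pparg and -0.0926 to 0.426 for Csf2rb.

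Leaving out each library in turn called 0 members, with a lowest adjusted p of 0.0687 and medians of the members between -0.71 and -0.11. Upper-quartile factors moved the median of all genes from 0.07 to 0.27 and that of the members from -0.39 to -0.15. Among the other named genes, 34 values lost their call. No paired analysis was possible because the labels carry no replicate numbers and libraries were numbered in accession order. Depth limits Marco and Fabp4 most, with 31 and 22 counts in normal lung.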
